A study of Caenorhabditis elegans with 10 samples.

Results

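The skipped exon (SE) events described here are the internal exons that the authors listed as spliced into the mRNA at a different rate in *sftb-1* mutants than in wild type (WT). They were selected on the inclusion and skipping reads themselves, as every SE row of the 3 deposited splicing lists, one each for the alleles K718E, *cer39* and *cer6*, which gave 528 of 1008 listed events of all types (52.4%). K718E had 88 events in 63 genes, *cer39* had 162 in 129 genes and *cer6* had 278 in 236 genes, and the 528 events covered 426 distinct exons. The authors kept an event when its false discovery rate in that same comparison was under 0.05. Inclusion differences below therefore describe events already chosen for differing, and no test was run on them. SE events outside the lists were not analysed here.

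*sftb-1* is the *C. elegans* ortholog of human SF3B1, the subunit of the U2 snRNP that contacts the intron around the branch site when the 3′ end of an intron is recognised. An exon is skipped when the upstream 5′ splice site is joined directly to the next 3′ splice site downstream. An exon whose length is a multiple of 3 can leave the protein without shifting the reading frame, whereas loss of any other coding exon shifts it. *C. elegans* introns are mostly short, and an exon between longer introns has more distant neighbours for its splice sites to pair with.

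The K718E group held 2 libraries of L4 worms homozygous for this missense change, strain CER218 (*cer3*) and strain CER220 (*cer7*), which came from independent CRISPR edits. Their controls were 2 libraries of WT worms recovered from the same outcrosses, CER217 and CER221. These L4 worms were grown for 41 h at 20 °C, and poly-A mRNA was sequenced. At L2, after 23 h at 20 °C, 2 libraries each were made from N2 worms (WT), from CER276 worms carrying *cer39*, and from *cer6* homozygotes. *cer39* is a triple mutant with the missense changes Q552P, R643C and K718E. *cer6* is a deletion that causes a premature stop. *cer6* homozygotes were sorted as non-red larvae from the balanced strain CER191, in which the red marker oxTi615 labels the animals that keep a WT copy. Larvae that lost the marker by recombination would carry WT *sftb-1* into that sort. The study reports such recombinants in the sorted samples, and a larger share of red larvae. N2 larvae had been sorted as well and *cer39* larvae had not, so sorting and the *cer39* genotype cannot be told apart. L2 RNA was total RNA depleted of ribosomal RNA. Stage and library type cannot be told apart either, and K718E was measured only at L4. *cer39* and *cer6* were set against the same 2 N2 libraries, so their values stand side by side and were not compared with each other.

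The edits that define the missense alleles are shown with the repair templates used to make them, since these edits are what sets the missense mutants apart from WT by design. Capitals mark the bases that the study's table of designed sequences gives as changed, including those that do not alter the protein. All target *sftb-1*, at III:4263786–4269270 on the minus strand of WBcel235 (Ensembl annotation).
K718E repair template: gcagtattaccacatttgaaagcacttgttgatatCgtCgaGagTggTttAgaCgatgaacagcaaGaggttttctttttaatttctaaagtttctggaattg
R643C repair template: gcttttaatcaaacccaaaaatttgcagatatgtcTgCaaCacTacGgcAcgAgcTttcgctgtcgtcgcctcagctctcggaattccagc
Q552P repair template: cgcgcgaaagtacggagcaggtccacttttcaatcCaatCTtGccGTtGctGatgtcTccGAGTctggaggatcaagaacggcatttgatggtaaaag
Guide of the *cer6* deletion: aactatcactgctctctgct
The templates carry 8, 8 and 13 changed bases in that order. Sequence around the affected exons was not used here.

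Inclusion is the share of the mRNA that retains the exon, from 0 to 1. It was recomputed for each library from the deposited reads of the inclusion and skipping forms, each divided by its form length. In all 528 events the 2 form lengths differed by exactly the exon length, so reads inside the exon counted toward inclusion at both stages. The order of the 2 values given for each group is not labelled, so they are printed in the order deposited. Median read numbers in the shallowest library of an event were 323 in K718E, 230.5 in *cer39* and 196 in *cer6*. In 17, 7 and 10 events at least 1 library had under 10 reads. Depth was 56996610 to 66563408 reads per L4 library and 45313448 to 76420128 per L2 library, summed over genes. The 2 N2 libraries differed most, with 10.4% of genes over 2-fold apart between them, against 1.18% to 4.93% in the other 4 groups. Normalized *sftb-1* counts were 14652 and 13787 in WT and 13710 and 15045 in K718E. They were 6152 and 7222 in N2, 7333 and 6706 in *cer39*, and 3229 and 3580 in *cer6*, in which both libraries were below both N2 libraries.

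The 3 alleles differed in the kind of exon listed. K718E events were mostly gains of inclusion, often at exons rarely used in WT, and most *cer6* events were exons almost always used in WT that were included less often. *cer39* lay between them. The 88 K718E events were 1.39% of the 6350 SE events the authors detected. The shares were 3.69% of 4386 for *cer39* and 5.62% of 4943 for *cer6*. Inclusion was lower in the mutant for 28 of 88 events in K718E (31.8%), 108 of 162 in *cer39* (66.7%) and 224 of 278 in *cer6* (80.6%). Median WT inclusion was 0.174, 0.659 and 0.931 in that order. Among the 60 K718E events with higher inclusion, 35 had a WT inclusion of at most 0.1, which is 39.8% of all 88. Among the 224 *cer6* events with lower inclusion, 146 had a WT inclusion of at least 0.9, as did 48 of 108 in *cer39* and 18 of 28 in K718E.

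**Figure D1:**
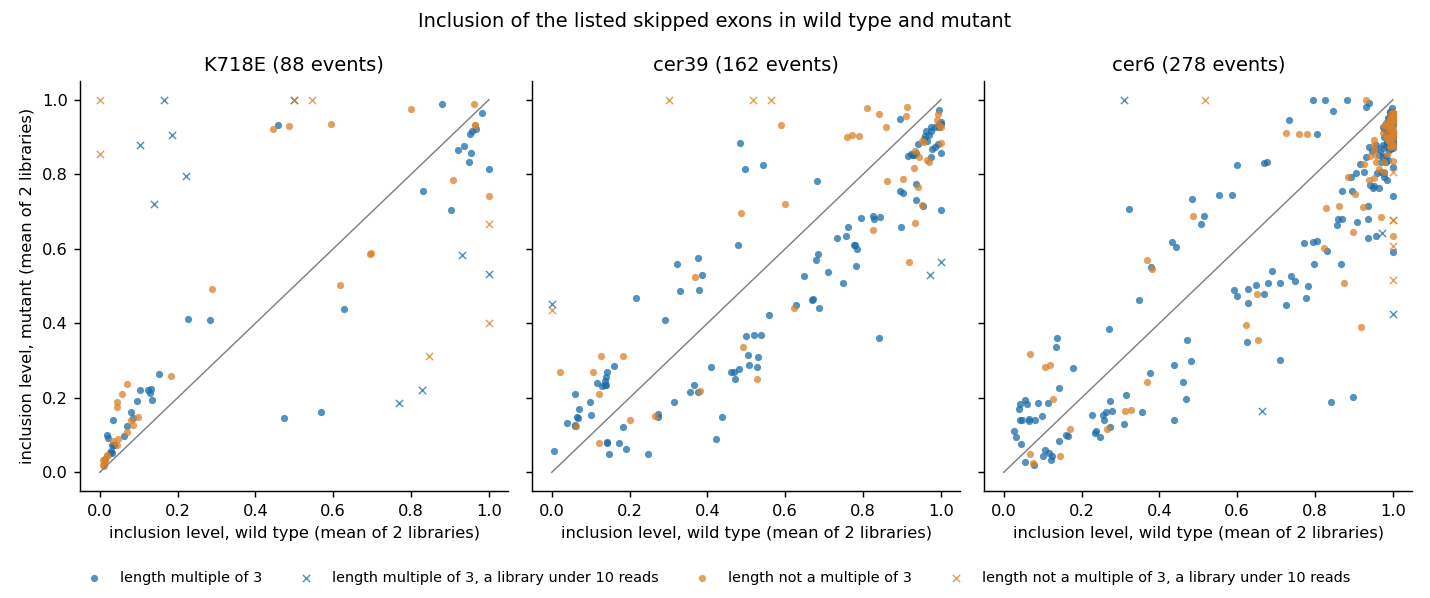
Mean inclusion level in WT (horizontal axis) and in the mutant (vertical axis), both from 0 to 1, for each listed event, with 1 panel per allele; colour gives the reading frame and crosses mark events with under 10 reads in a library. K718E points gather at low inclusion above the diagonal of equal values, and *cer6* points gather at high WT inclusion below it, where 146 events had a WT level of at least 0.9.

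Differences were small for most events. The median absolute difference was 0.103 in K718E, 0.127 in *cer39* and 0.117 in *cer6*, and 44, 110 and 164 events exceeded 0.1. The median distances between the 2 libraries of a group were 0.0127 in L4 WT and 0.0223 in K718E. The corresponding distances were 0.0305 in N2 and 0.0265 in the mutant for the *cer39* events, and 0.0197 and 0.0347 for the *cer6* events. Mutant and WT libraries did not overlap in 86 of 88, 160 of 162 and 274 of 278 events. The events were listed for differing in these same reads. Neither the library distances nor the lack of overlap is therefore independent evidence for the differences. The same values for all detected SE events were not computed. The smallest listed difference, 0.00704, was that of a 97-nt exon of *lec-9* in K718E, which had at least 3098 reads in every library. Large differences in K718E often rested on few reads. With at least 20 reads in every library its median difference was 0.0610 over 64 events, against 0.579 over the 17 events in which a library had under 10 reads.

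In K718E, the largest loss of inclusion with at least 20 reads in every library was in *acdh-2*, an acyl-CoA dehydrogenase gene. The 66-nt exon at II:5545807–5545872 was included at 0.917 and 0.886 in WT and at 0.751 and 0.657 in K718E, a difference of −0.198. A 90-nt exon of *Y69H2.3* at V:18661622–18661711 stood at 0.626 and 0.627 in WT and 0.391 and 0.488 in K718E. In *sipa-1*, related to GTPase activators of Rap, a 141-nt exon at V:11632527–11632667 had no skipping read among 57 and 58 reads in WT. The 95% exact interval of its WT inclusion began at 0.839 and 0.841, and K718E stood at 0.808 and 0.821, just below both, with intervals that overlapped those of WT. The 223-nt exon of *tag-244* (IV:1551904–1552126), not a multiple of 3, was at 0.883 and 0.934 in WT and at 0.787 and 0.783 in K718E. Also among the 8 largest losses were exons of *let-805*, *lev-11* and *fln-1*, the genes for myotactin, tropomyosin and filamin. The 2 *fln-1* exons of this group share one end and differ by 6 nt at the other end, and they were at 0.706 and 0.683 in WT and 0.584 and 0.587 in K718E for the shorter form. *fln-1* held 6 of the 88 K718E events, built from 3 overlapping forms of this exon with 2 downstream splice sites, so these 6 are 1 place in the genome. The WT and K718E libraries of each of these exons stood apart, which was a condition for ranking an exon in any allele.

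With at least 20 reads in every library, most of the largest gains in K718E were exons that WT worms left out of most transcripts. A 628-nt exon of *fbxa-55*, a gene for an F-box protein, at III:933839–934466 was included at 0.302 and 0.273 in WT and 0.462 and 0.520 in K718E. A 26-nt form sharing one end was at 0.066 and 0.050 in WT and 0.203 and 0.219 in K718E. The 21-nt exon of *Y37E3.11* (I:2081956–2081976) stood at 0.189 and 0.264 in WT and at 0.394 and 0.426 in K718E. *ZC262.2* held 4 K718E events, and its 59-nt exon at III:8332586–8332644 was at 0.074 and 0.066 in WT against 0.239 and 0.233. The exception to low use was a 68-nt exon of *T24B8.4* (II:9065646–9065713), at 0.764 and 0.835 in WT and 0.952 and 1.000 in K718E. The ranking required groups that did not overlap, and the largest of the 5 differences was 0.204.

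In *cer39*, the largest loss with at least 20 reads in every library was in *swp-1*, described with the splicing factors below. This gene is the ortholog of the splicing regulator Suppressor of white-apricot. In *tnt-3*, which encodes a troponin T, a 28-nt exon at X:7940797–7940824 was included at 0.554 and 0.500 in N2 and at 0.20 and 0.302 in *cer39*. Its loss would shift the frame. A 57-nt exon of *F08G5.3* (IV:12413745–12413801) stood at 0.638 and 0.735 in N2 and 0.500 and 0.384 in *cer39*. A 156-nt exon of *mrp-1*, a gene of the multidrug resistance ABC transporters, was at 0.527 in both N2 libraries and at 0.290 and 0.276 in *cer39*. The 69-nt exon of *C14C10.2* was nearly constitutive in N2, at 0.932 and 0.975, and stood at 0.663 and 0.767 in *cer39*. *Y69H2.3* (192 nt) and *unc-82*, a kinase gene of muscle (72 nt), completed the 8 largest losses, with differences of −0.227 and −0.222. Each exon is ranked by its event with the most reads. The 90-nt exon of *Y69H2.3* had 2 *cer39* events that differ in a flanking splice site, at −0.127 in the deeper and −0.291 in the other, so it is not among the 8. Mutant and N2 libraries stood apart in each, as the ranking required.

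The largest gain in *cer39* was a 195-nt exon of *pef-1*, which encodes a protein phosphatase with EF hands, at III:925381–925575. It was included at 0.412 and 0.556 in N2 and at 0.889 and 0.879 in *cer39*. Exons of 2 genes for basement membrane or collagen proteins were next. *col-99*, a transmembrane collagen gene, had a 45-nt exon at 0.464 and 0.529 in N2 and 0.821 and 0.806 in *cer39*, on at least 23 reads per library. *nid-1*, the nidogen gene, had a 171-nt exon (V:12914221–12914391) at 0.587 and 0.500 in N2 and 0.844 and 0.805 in *cer39*. *T23E7.2* (150 nt) and *D2023.1* (71 nt, in a non-coding transcript) followed, with differences of 0.251 and 0.247. All 5 gains were seen in both mutant libraries, as the ranking required.

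In *cer6*, *swp-1* again had the largest loss among exons with at least 20 reads in every library. A 57-nt exon of *Y17G7B.20* at II:11979048–11979104 was included at 0.727 and 0.694 in N2 and at 0.280 and 0.321 in *cer6*, with at least 825 reads per library. The 273-nt exon of *F57B9.3* (III:6940141–6940413) had no skipping read among 65 and 21 reads in N2, for which the 95% exact intervals of inclusion began at 0.787 and 0.529. It stood at 0.640 and 0.544 in *cer6*, on 435 and 268 reads. Normalized counts of the *F57B9.3* gene were 129 and 68.6 in N2 and 759 and 697 in *cer6*, so the N2 level of this exon rests on far fewer reads. The 84-nt exon of *sms-1*, a sphingomyelin synthase gene, was at 0.959 and 0.953 in N2 and at 0.771 and 0.495 in *cer6*, so its 2 mutant libraries were far apart. Leaving out either of them moved the difference of −0.323 to −0.461 or −0.185. Exons of *W05F2.4* (75 nt) and *nhx-5*, a sodium/proton exchanger gene (52 nt), were also among the largest losses, with differences of −0.308 and −0.297. The *nhx-5* exon was at 0.767 and 0.538 in N2 and 0.357 and 0.354 in *cer6*, and its difference ran from −0.411 to −0.183 when 1 library was left out.

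Among gains in *cer6* with at least 20 reads in every library, a 48-nt exon of *cpna-1* was first. This gene encodes a copine-domain protein of muscle attachments, and the exon at II:4206220–4206267 was at 0.334 and 0.309 in N2 and at 0.702 and 0.711 in *cer6*. The same 195-nt *pef-1* exon as in *cer39* stood at 0.696 and 0.772. A 159-nt exon of *ncx-2*, a sodium/calcium exchanger gene, was at 0.637 and 0.561 in N2 and 0.821 and 0.830 in *cer6*. The *uaf-1* exon described with the splicing factors and a 537-nt exon of *pqn-72* were the other 2 of the 5 largest gains. All 5 of these exons were multiples of 3. No N2 library overlapped a *cer6* library in any of them, as the ranking required.

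**Figure D2:**
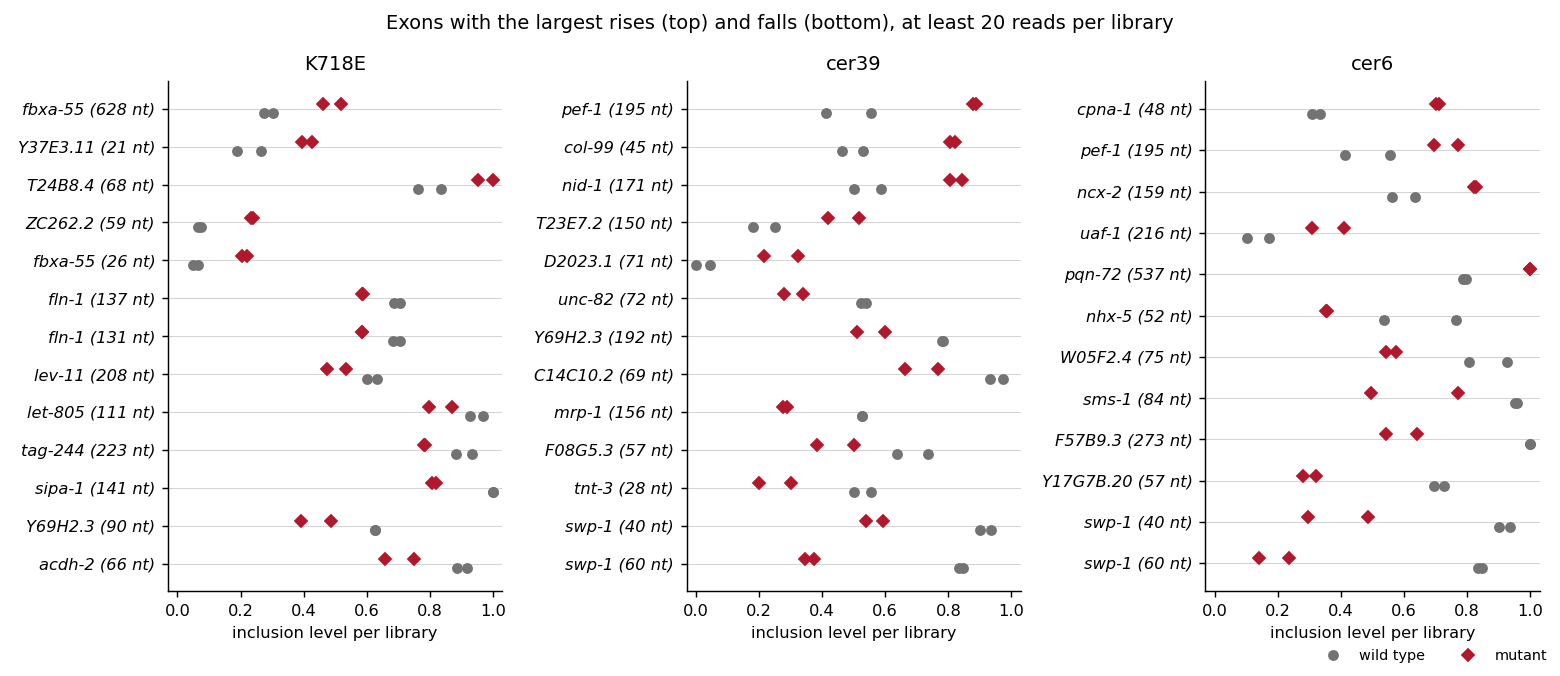
Inclusion level in each library (horizontal axis, 0 to 1) of the exons with the 5 largest gains and 8 largest losses per allele, with at least 20 reads in every library, other than 1 *cer6* exon that is not shown; grey circles are the 2 WT libraries and red diamonds the 2 mutant libraries. The 60-nt *swp-1* exon moved furthest, from 0.847 and 0.833 in N2 to 0.374 and 0.345 in *cer39* and 0.140 and 0.236 in *cer6*.

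Splicing factors were themselves hosts of listed exons. Of 59 genes in a list of core and regulatory splicing factors, 4 (6.78%) had a listed exon in K718E, 7 (11.9%) in *cer39* and 8 (13.6%) in *cer6*. Among all genes tested the shares were 0.379%, 0.856% and 1.57%. The list had been chosen with earlier results known, and exon number and read depth per gene were not matched. The 60-nt *swp-1* exon at III:5704688–5704747 is annotated in untranslated sequence, and a 40-nt form sharing one end is annotated as coding. Both share their skipping reads. The 60-nt form stood at 0.847 and 0.833 in N2, 0.374 and 0.345 in *cer39*, and 0.140 and 0.236 in *cer6*, and the 40-nt form at 0.936 and 0.901, 0.593 and 0.539, and 0.297 and 0.485. N2 depth was low, at 22 and 30 reads for the 60-nt form, and its 95% exact intervals ran from 0.574 to 0.980 and from 0.606 to 0.963. Intervals in *cer6* ended at 0.228 and 0.414.

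A 216-nt exon of *uaf-1*, which encodes the large subunit of U2AF, the partner of the U2 snRNP at the 3′ splice site, was included more often in all 3 mutants. This exon at III:1068036–1068251 does not match an annotated exon end to end. It lies 2171 nt from the upstream exon and 83 nt from the downstream exon. Inclusion was 0.086 and 0.082 in L4 WT and 0.132 and 0.157 in K718E. It was 0.102 and 0.173 in N2, 0.223 and 0.245 in *cer39*, and 0.411 and 0.308 in *cer6*. The *cer39* difference of 0.0966 ran from 0.0608 to 0.133 when 1 library was left out. At L4 a 240-nt form sharing one end stood at 0.075 and 0.066 in WT and 0.111 and 0.137 in K718E. Gene counts of *uaf-1* overlapped between K718E and WT and between *cer39* and N2, and both *cer6* libraries (3676 and 4099) were above N2 (2943 and 3542).

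Other splicing factor exons showed smaller differences. *etr-1*, which encodes a CELF family RNA-binding protein, had a 207-nt exon at 0.292 and 0.275 in WT and 0.399 and 0.418 in K718E. A 213-nt form sharing one end stood at 0.387 and 0.372 in N2, 0.503 and 0.475 in *cer39*, and 0.543 and 0.559 in *cer6*. *rbm-39* had a 66-nt exon in untranslated sequence at 0.076 and 0.052 in N2, 0.170 and 0.128 in *cer39*, and 0.136 and 0.139 in *cer6*. Exons of *rsp-4* and *rsp-5*, SR protein genes, were included less often, with *rsp-4* (186 nt) at 0.128 and 0.158 in N2, 0.083 and 0.078 in *cer39*, and 0.080 and 0.087 in *cer6*. A 34-nt coding exon of *ptb-1*, a polypyrimidine tract binding protein gene, went from 0.911 and 0.894 in N2 to 0.770 and 0.801 in *cer39*. *sfa-1*, the gene for branch point binding protein SF1, had a 73-nt exon at 0.960 and 0.945 in N2 and 0.839 and 0.942 in *cer6*, so that 1 of the mutant libraries lay next to N2. Its difference of −0.0614 ran from −0.113 to −0.00993 when 1 library was left out. The 64-nt exon of *tiar-1* was rare in every L4 library, at 0.009 and 0.011 in WT and 0.023 and 0.026 in K718E. Of the distinct exons in this list, 5 of 5 had higher inclusion in K718E, 3 of 8 in *cer39* and 3 of 9 in *cer6*. The shares over all listed events were 68.2%, 33.3% and 19.4%. The 5 in K718E include the 2 overlapping forms of the *uaf-1* exon.

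Exons of sarcomere and attachment genes were listed in every allele, in 3 of 52 genes in K718E (5.77%) and 7 of 52 in each of *cer39* and *cer6* (13.5%), beside 0.379%, 0.856% and 1.57% of all genes. This list too was chosen with earlier results known, without matching for exon number or read depth. Its median gene level was 13200 in the K718E comparison, against 654 over all genes tested. In *lev-11*, which encodes tropomyosin and is spliced in tissue-specific forms, 2 neighbouring exons differed from WT in opposite directions in K718E, and the skipping reads of one end at the other, so they are linked. The 208-nt exon at I:14622304–14622511 stood at 0.602 and 0.632 in WT and 0.533 and 0.473 in K718E. The 86-nt exon at I:14622658–14622743 stood at 0.173 and 0.195 in WT and 0.248 and 0.271 in K718E. *cer39* showed the same pair of directions, with the 208-nt exon at 0.224 and 0.176 in N2 and 0.121 and 0.159 in the mutant, and the 86-nt exon at 0.584 and 0.612 in N2 and 0.728 and 0.710. The *cer39* difference of the 208-nt exon, −0.0605, ran from −0.0845 to −0.0364 when 1 library was left out. In *cer6* both were lower, but the listed events there measure skipping of both exons together, so those values are not the same quantity. Body wall muscle markers were higher in K718E than in WT at L4. The summed normalized counts of all 5 markers were 222542 to 237486 in WT and 465097 to 521716 in K718E, and those of the 4 pharynx markers were 18243 to 19315 and 39480 to 42147. In bulk worms, fewer cells of a type and less RNA per cell cannot be told apart, and the part of muscle RNA in these inclusion levels was not tested. At L2, muscle marker sums overlapped among the 3 groups (123828 to 225106 in N2).

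Other exons of sarcomere and attachment genes were also listed, some of them long. A 111-nt exon of *let-805* was at 0.970 and 0.927 in WT and 0.797 and 0.870 in K718E. The 2160-nt exon of *unc-89*, the obscurin gene, was at 0.911 and 0.880 in N2, 0.761 and 0.751 in *cer39* and 0.738 and 0.774 in *cer6*, on at least 4719 reads per library. A 1278-nt exon of *ttn-1*, a titin-like gene, was at 0.696 and 0.681 in N2 and 0.527 and 0.552 in *cer6*. The 342-nt exon of *vab-10*, the spectraplakin gene, was at 0.897 and 0.907 in N2 and 0.741 and 0.759 in *cer39*. The 2502-nt stretch of *tnt-3* at X:7941931–7944432 was at 0.513 and 0.501 in N2, 0.287 and 0.287 in *cer39* and 0.606 and 0.726 in *cer6*. Its *cer6* difference of 0.159 ran from 0.0983 to 0.219 when 1 library was left out. It is not annotated as an exon of this extent. *tnt-3* counts were lower in both alleles, at 3401 and 2921 in *cer39* and 2263 and 3122 in *cer6* against 6767 and 8070 in N2.

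Of 32 extracellular matrix genes, 2 (6.25%) hosted listed exons in K718E, 5 (15.6%) in *cer39* and 2 (6.25%) in *cer6*, beside 0.379%, 0.856% and 1.57% of all genes. They held 3, 5 and 4 exons, of which 2, 3 and 2 had lower inclusion and 1, 2 and 2 higher. Over all listed events, inclusion was lower in 31.8%, 66.7% and 80.6%. The matrix list was also chosen with earlier results known, without matching for exon number or read depth. Its median gene level was 4200 in the K718E comparison, against 654 over all genes tested. Exons of *unc-52*, the perlecan gene, were slightly lower in K718E, with a 297-nt exon at 0.917 and 0.924 in WT and 0.854 and 0.876 in K718E. In *fbn-1*, a fibrillin-like gene, the 69-nt exon at III:7634818–7634886 stood at 0.399 and 0.564 in N2, 0.279 and 0.276 in *cer39* and 0.278 and 0.318 in *cer6*. N2 counts of *fbn-1* were 7529 and 44492, a large spread between replicates. Without either of the N2 libraries, the *cer39* difference of −0.204 became −0.286 or −0.121 and the *cer6* difference of −0.183 became −0.266 or −0.101. At L4 the same exon was listed on 1 to 7 reads per library. It stood at 0.000 and 0.207 in WT and 1.000 and 0.758 in K718E. The exact intervals of single WT and K718E libraries overlapped. Exons of 87 and 141 nt in *fbn-1*, which share one end, were higher in *cer6* than in N2. Their differences ran from 0.117 to 0.203 and from 0.0757 to 0.132 when 1 library was left out. The 30-nt exon of *mua-3*, which encodes a fibrillin-like attachment protein, was at 0.537 and 0.383 in N2, 0.253 and 0.284 in *cer39*, and 0.247 and 0.236 in *cer6*. With 1 library left out its differences ran from −0.269 to −0.115 and from −0.296 to −0.142.

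Of 49 neuronal and synaptic genes tested, 0 hosted a listed exon in K718E, 2 (4.08%) in *cer39* and 4 (8.16%) in *cer6*, beside 0.379%, 0.856% and 1.57% of all genes. At so low a share over all genes, 0 among 49 does not set the list apart in K718E. The neuronal list was chosen with earlier results known as well, without matching for exon number or read depth. All of the listed exons in these genes had lower inclusion, 2 in *cer39* and 5 in *cer6*, where 66.7% and 80.6% of all listed events were lower. A 78-nt exon of *unc-44*, the ankyrin gene, was at 0.746 and 0.842 in N2, 0.680 and 0.683 in *cer39*, and 0.60 and 0.634 in *cer6*. The *cer39* difference of −0.112 ran from −0.160 to −0.0638 when 1 library was left out. A 36-nt exon of *unc-31*, the CAPS gene needed for dense core vesicle release, was at 0.954 and 1.000 in N2 and 0.783 and 0.821 in *cer6*. In *unc-32*, which encodes a V-ATPase subunit, 2 exons of 107 and 155 nt were nearly constitutive in N2 (0.955 to 0.995) and stood at 0.869 to 0.960 in *cer6*. Their differences of −0.0629 and −0.0473 ran from −0.105 to −0.0208 and from −0.0750 to −0.0196 when 1 library was left out. A 34-nt untranslated exon of *cca-1*, a calcium channel gene, was at 0.892 and 0.854 in N2 and at 0.408 and 0.608 in *cer6*, with 12 reads in the shallowest library. Summed neuronal markers were 24315 to 26196 in N2, 27170 to 28331 in *cer39* and 30592 to 34185 in *cer6*, and their part in these levels was not tested.

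Microexons of at most 27 nt made up 7 of 88, 8 of 162 and 10 of 278 events. Of the annotated internal exons of protein-coding genes, 0.168% are as short. Those spanned by an annotated intron of their gene, and so known to be skipped in some transcript, had a share of 5.04%. The shortest was a 9-nt exon of *tax-6*, the calcineurin A gene (IV:10496534–10496542), which encodes 3 residues. It was at 0.019 and 0.019 in WT and at 0.027 and 0.171 in K718E, so its difference of 0.0798 came from 1 library and was 0.00790 without it. In *rme-1*, an endocytic recycling gene, a 15-nt exon was at 0.134 and 0.109 in N2 and 0.037 and 0.030 in *cer6*. A 24-nt exon of *rme-8* was at 0.272 and 0.244 in N2 and 0.147 and 0.134 in *cer6*. In *nmy-1*, a non-muscle myosin gene, a 21-nt exon went from 0.551 and 0.568 in N2 to 0.423 and 0.420 in *cer39*. The 24-nt exon of *kvs-5*, a potassium channel gene, was at 0.835 and 0.854 in N2 and 0.617 and 0.751 in *cer39*. Leaving out 1 library moved the *kvs-5* difference of −0.161 to between −0.227 and −0.0940. Of all listed events, 68.2% in K718E, 33.3% in *cer39* and 19.4% in *cer6* had higher inclusion in the mutant. Among the microexons it was higher for 5 of 7, 3 of 8 and 5 of 10 events in that order. Among these gains was a 27-nt exon of *mig-15*, a kinase gene, at 0.059 in both N2 libraries and 0.110 and 0.142 in *cer39*.

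Lengths that are multiples of 3 were more frequent in all 3 lists than among all annotated internal coding exons. Lengths were multiples of 3 in 49 of 88 K718E events (55.7%), 114 of 162 *cer39* events (70.4%) and 186 of 278 *cer6* events (66.9%). The share was 39.6% in the 84352 annotated internal coding exons and 66.8% in the 1474 of them spanned by an annotated intron of the same gene. Against those spanned by an annotated intron, the share of listed events was lower in K718E, about equal in *cer6* and slightly higher in *cer39*. The lists also hold exons that are not annotated as coding. Of the events with a coding exon, 29 of 36 in K718E, 103 of 129 in *cer39* and 165 of 234 in *cer6* were multiples of 3. These shares carry no test. Frame varied with the WT level. Of *cer6* losses with a WT inclusion of at least 0.9, 83 of 146 (56.8%) were multiples of 3, against 61 of 78 (78.2%) of those below 0.9. The *cer39* losses gave 31 of 48 (64.6%) and 51 of 60 (85.0%). Lengths ranged from 9 to 2283 nt in K718E, 21 to 2502 in *cer39* and 15 to 2502 in *cer6*, with medians of 112.5, 98 and 117 nt, against 152 nt for annotated internal exons.

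**Figure D3:**
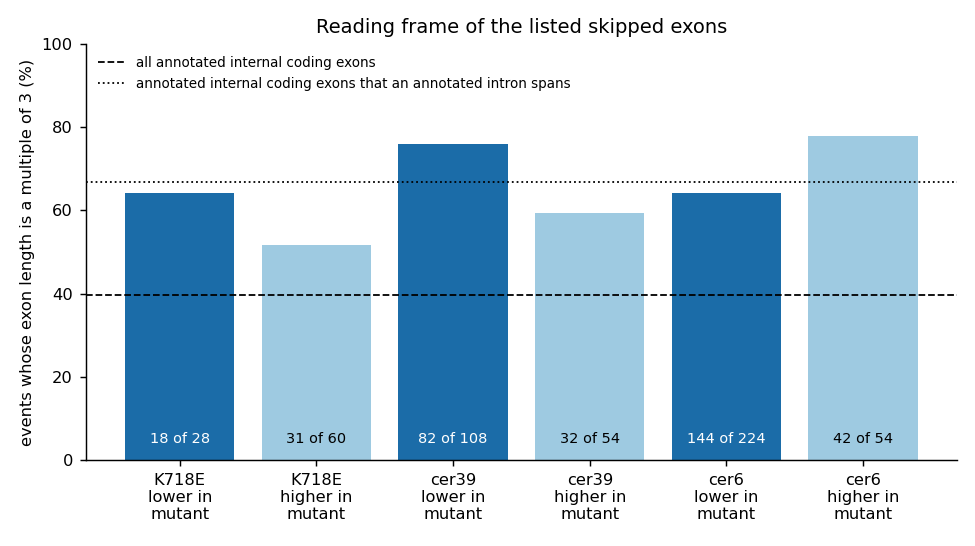
Percent of events whose exon length is a multiple of 3 (bars, with counts printed in them), by allele and by direction in the mutant; the dashed line is all annotated internal coding exons (39.6%) and the dotted line those that an annotated intron of the same gene spans (66.8%). All 6 bars lie above the dashed line, from 31 of 60 in K718E gains to 42 of 54 in *cer6* gains.

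Whether the skipped form is annotated also differed. The junction that skips the exon is an annotated intron for 74 of 88 K718E events (84.1%), 123 of 162 in *cer39* (75.9%) and 150 of 278 in *cer6*. For exons with lower inclusion and a WT level of at least 0.9 the shares were 15 of 18, 19 of 48 and 31 of 146. Of the 120 *cer6* losses whose skipping junction is not annotated, 66 (55%) were multiples of 3, against 75% of the other *cer6* losses. Exons were annotated end to end for 156 of 162 *cer39* and 268 of 278 *cer6* events, but for 45 of 88 in K718E. The annotation used here, the same for all 3 lists, is a later Ensembl release than release 87 used by the authors. The part of that change was not tested. Most of the K718E exons without a match, 34 of 43, were gains, and 25 of these had a WT inclusion of at most 0.1. Restricted to annotated exons, K718E had 32 of 45 multiples of 3 (71.1%), and 19 of 45 had lower inclusion. Median WT inclusion was 0.472 for these 45 events and 0.0704 for the 43 without a match.

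Listed exons lay between long introns. The median upstream and downstream introns were 292 and 219.5 nt in K718E, 179 and 240 nt in *cer39*, and 383 and 387 nt in *cer6*. All annotated internal coding exons have medians of 64 and 61 nt, and those spanned by an annotated intron have 181.5 and 235 nt. *cer6* losses had the longest pair among the 6 sets by allele and direction, at 410 and 449 nt. Within them, exons with a WT inclusion of at least 0.9 had medians of 530 and 585.5 nt and the others 210 and 280 nt. The *cer39* losses with a WT inclusion of at least 0.9 had 157.5 and 245 nt. Intron lengths were taken between the flanking exons of each event and were not used to choose the events.

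**Figure D4:**
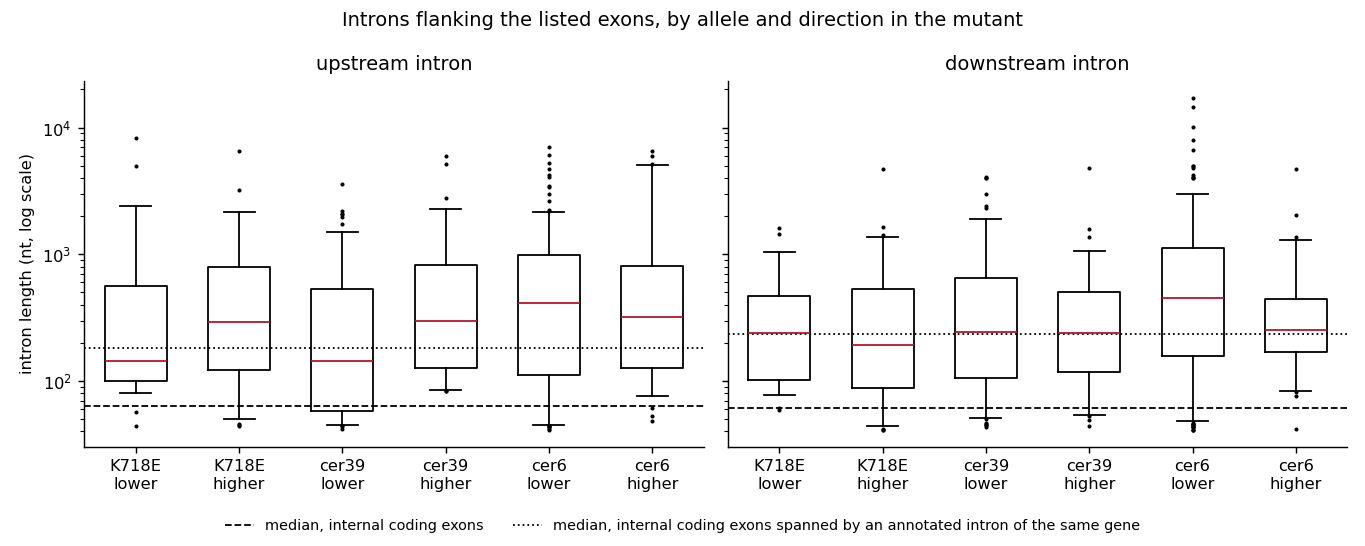
Lengths of the upstream (left) and downstream (right) introns of the listed exons in nt on a log axis, by allele and direction in the mutant; boxes are quartiles, red lines medians, whiskers reach the 5th and 95th percentiles and dots lie beyond. Dashed and dotted lines are medians of annotated internal coding exons (64 and 61 nt) and of those spanned by an annotated intron (181.5 and 235 nt), and *cer6* losses have medians of 410 and 449 nt.

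K718E shared listed exons with each L2 allele, and these comparisons have no library in common. With *cer39* it shared 10 exons, which are 10 of its 84 distinct exons and 10 of the 156 of *cer39*. Directions were the same in 9 of 10, and in 9 of 9 with at least 20 reads in every library (the exception was *fbn-1*). With *cer6* it shared 13 exons, 13 of 84 and 13 of 268, of which 6 had the same direction and 7 the opposite one. With at least 20 reads the counts were 6 and 6. Where the flanking exon ends also matched, which leaves out both *lev-11* exons of *cer6* and the *sipa-1* exon of *cer39*, 5 of 11 exons had the same direction with *cer6* and 8 of 9 with *cer39*. A 27-nt exon of *gpdh-2*, a glycerol-3-phosphate dehydrogenase gene, was low and higher in each mutant. It was at 0.034 and 0.030 in WT and 0.050 and 0.051 in K718E, and at 0.094 and 0.101 in N2, 0.191 and 0.187 in *cer39*, and 0.147 and 0.153 in *cer6*. The *ZC262.2* exon of 59 nt likewise stood at 0.111 and 0.144 in N2, 0.307 and 0.316 in *cer39*, and 0.205 and 0.189 in *cer6*. In *sipa-1*, the 141-nt exon had N2 levels of 0.810 and 0.75 and *cer39* levels of 0.616 and 0.606.

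Exons that moved apart between K718E and *cer6* included that of a splicing factor. A 76-nt exon of *rsp-7*, an SR-related gene, was at 0.073 and 0.086 in WT and 0.143 and 0.140 in K718E, but at 0.082 and 0.068 in N2 and 0.034 and 0.017 in *cer6*. Counts of *rsp-7* were 2231 and 2470 in N2 and 6069 and 6076 in *cer6*. A 51-nt exon of *cyl-1*, the cyclin L gene, was at 0.139 and 0.109 in WT and 0.225 and 0.215 in K718E, but at 0.173 and 0.159 in N2 and 0.096 and 0.098 in *cer6*. *fbxa-55* (628 nt), *map-2* (72 nt, a methionine aminopeptidase gene) and *cas-1* (2283 nt, an adenylyl cyclase-associated protein gene) followed the same pattern. The *cas-1* exon was at 0.119 and 0.145 in WT and 0.239 and 0.206 in K718E, and at 0.125 and 0.194 in N2 and 0.092 and 0.108 in *cer6*. Its *cer6* difference of −0.0595 ran from −0.0942 to −0.0249 when 1 library was left out. Stage and library type differ along with the allele in these pairs, and the difference between alleles was not tested.

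**Figure D5:**
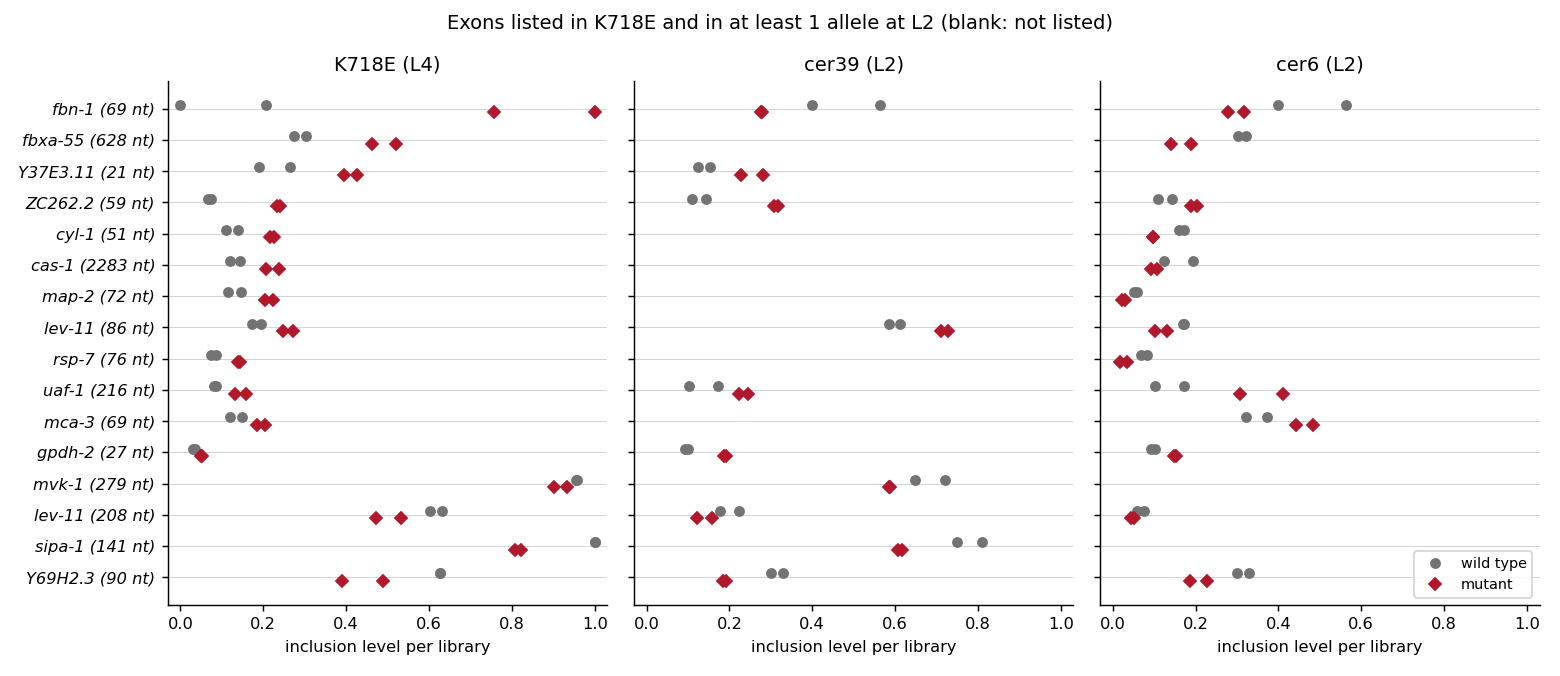
Inclusion level in each library (horizontal axis, 0 to 1) of the exons listed in K718E at L4 and in at least 1 allele at L2, with grey circles for the 2 WT libraries and red diamonds for the 2 mutant libraries; a blank row in a panel means that the exon was not listed. *uaf-1*, *ZC262.2* and *gpdh-2* have diamonds to the right of circles in all 3 panels, whereas *rsp-7*, *fbxa-55*, *cyl-1*, *cas-1* and *map-2* have them to the right in K718E and to the left in *cer6*.

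Host genes kept close to their WT level in most cases, as did genes at large. Gene levels are sums of normalized counts over transcripts, on the log2(count + 1) scale, for genes with a mean of at least 10. Of the hosts tested, 0 of 60 in K718E, 11 of 127 in *cer39* and 32 of 235 in *cer6* were over 2-fold from WT. Over all genes tested the counts were 173 of 15840, 1519 of 14828 and 2691 of 14974. The median log2 difference of host genes from WT was 0.03 in K718E, −0.18 in *cer39* and 0.04 in *cer6*, beside −0.01, 0.00 and −0.01 over all genes. Both K718E libraries were above both WT libraries for 23 of 60 hosts (38.3%) and below for 18 (30%), where all 15840 genes gave 25.4% and 28.9%. In *cer39*, 20 of 127 hosts (15.7%) were higher and 57 (44.9%) lower, beside 32.4% and 29.6% of 14828 genes. In *cer6*, 91 of 235 hosts (38.7%) were higher and 63 (26.8%) lower, beside 31.3% and 32.7% of 14974 genes. Set against the WT library of the same replicate number, K718E was higher in both pairs for 27 of 60 hosts (45%) and lower in both for 20. The shares of all genes were 30.3% and 33.4%. Leaving out a library raised the unpaired counts, since fewer libraries overlap less often. Without the N2 library replicate 2 the *cer39* hosts that were higher numbered 33, and without N2 replicate 1 or *cer6* replicate 2 the *cer6* hosts that were lower numbered 98 and 102. The exon list and the gene level come from the same libraries, so these shares are descriptions.

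At L2, the median difference in gene level from WT was no lower for hosts of frame-shifting losses than for hosts of frame-keeping ones. For annotated coding exons with lower inclusion in *cer6*, the median log2 difference of the gene was 0.08 over 55 hosts of exons that are not a multiple of 3 and 0.07 over 120 hosts of multiples of 3. In *cer39* the values were −0.12 over 13 hosts and −0.24 over 55. The level itself was lower for the first kind, with median normalized counts of 1080 against 2010 in *cer6* and 1420 against 3230 in *cer39*. K718E had only 2 hosts of the first kind, at a median of −0.06, against 0.33 over 12 of the second.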

How the data were processed

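RNA-seq of *C. elegans* was analysed from 10 libraries, 4 at L4 and 6 at L2, in groups of 2. Per the authors, paired reads were mapped to WBcel235 (STAR), transcript abundance was estimated by RSEM, and splicing events came from rMATS. For these tools the version is not given in the sources used here. Deposited transcript values are signal made by the authors by dividing counts by DESeq2 size factors. Whole reads, within 0.1, were recovered for 100% of these values. No count test was run on those reads, since the members were chosen on the same contrasts and every result is a description. In the deposited splicing tables the authors list read counts of the inclusion and skipping forms with their form lengths. The columns of the authors' own comparisons (p-values, false discovery rates, inclusion levels and fold changes) were not used, except to check that every event lay under the 0.05 limit. With 2 libraries against 2, an exact permutation test could not go below p = 0.333.

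Inclusion was (inclusion reads / inclusion form length) divided by the sum of that and (skipping reads / skipping form length), and the difference was the mutant mean minus the WT mean. Intervals are exact binomial at 95%, carried to the inclusion scale, and cover counting error only. Gene levels were summed over transcripts, with a mean of at least 10 and a pseudocount of 1; 1 row of the L2 table was left out. Exon classes and introns came from an Ensembl annotation of the same assembly, later than that of the authors. Named exons were, per allele, the 8 largest losses and 5 largest gains with 20 or more reads per library and groups that did not overlap, those of at most 27 nt, those listed in K718E and at L2, those over 0.3 in both L2 alleles, and exons of the 4 gene lists. For 1 of the named *cer6* losses the result is not reported here. IDs were matched for 59 of 62 splicing factors, 52 of 52 muscle, 32 of 33 matrix and 49 of 50 neuronal genes. Members and lists were chosen with earlier results of these data known. Alternatives were read minimums, sizes of difference, 1 event per exon or gene, pooled reads, no length correction, other filters and pseudocounts, and leaving out each library; the restriction to annotated exons was added after seeing the data. The 2 L4 libraries of a group came from different strains, and the study describes the L2 libraries as replicate populations. At L4 the study ties each WT strain to the mutant of the same outcross (*cer3* or *cer7*). Libraries were paired by replicate number, and gene levels were also compared within these pairs, an alternative added after seeing the data. At L2 the libraries share only a replicate number. Tables were computed in Python 3.11.15 with pandas 2.3.3 and numpy 2.4.6, intervals with scipy 1.17.1, and plots with matplotlib 3.10.9.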

Additional observations from a re-analysis of the deposited data

Results flagged for a closer look

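Some exons differed from WT in opposite directions in 2 alleles, with both mutant libraries on one side of WT in one allele and on the other side in the other. None of these differences between alleles was tested. Between K718E and *cer6*, the mutant minus WT inclusion was 0.0619 and −0.0498 for the 76-nt *rsp-7* exon, 0.2035 and −0.1468 for the 628-nt *fbxa-55* exon, 0.0832 and −0.0279 for the 72-nt *map-2* exon, 0.0963 and −0.0686 for the 51-nt *cyl-1* exon, and 0.0909 and −0.0595 for the 2283-nt *cas-1* exon, whose *cer6* value ran from −0.0942 to −0.0249 when 1 library was left out. Allele, stage and library type cannot be told apart in these pairs. The 69-nt *fbn-1* exon was at 0.7755 in K718E, against −0.2035 in *cer39* and −0.1832 in *cer6*, but the K718E value rests on 1 to 7 reads per library.

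At L2, where both alleles were set against the same N2 libraries, the differences in *cer39* and *cer6* were −0.2203 and 0.1588 for the 2502-nt stretch of *tnt-3*. They were −0.1621 and 0.1636 for a 28-nt exon of *aqp-2*, an aquaporin gene, and −0.114 and 0.0704 for an 82-nt exon of *ZC434.9*. The last 2 exons lie outside the naming rule and were chosen after their values were seen.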

How the results depend on the processing

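Counts followed the size of difference asked for. Over 0.1, K718E kept 44 events (18 lower, 23 multiples of 3) and *cer6* 164 (126 lower, 117 multiples of 3). Over 0.2 they kept 25 (10 and 13) and 53 (41 and 36), and *cer39* 37 (23 and 26). With at least 20 reads in every library, 18 K718E events were lower. Annotated exons alone, added after seeing the data, left K718E 45 events, of which 32 were multiples of 3. The median absolute difference in *cer6* was 0.0735 with no correction for form length, and in K718E 0.0749 with at least 10 reads and 0.0610 with at least 20. The share of events with lower inclusion differed by less than 1.5 times in all 24 alternatives. Events with lower inclusion numbered 28 to 28, 108 to 108 and 222 to 224 in K718E, *cer39* and *cer6* when each library was left out. Host genes that were higher numbered 26 to 29, 23 to 33 and 98 to 118 in that order, and lower 19 to 26, 63 to 85 and 72 to 102, since fewer libraries overlap less often. Of the named exons' alternatives, 640 stayed within the replicate spread and 98 did not, and none changed sign. Where groups do not overlap, leaving out a library cannot reverse a difference. For left-out libraries, the unchanged signs and the nearly constant numbers of lower events were therefore largely fixed in advance. Leaving out a library cannot change the number listed, the lengths or the frames. Exons on few reads are limited by depth. With L4 libraries paired by replicate number (replicate block), 27 K718E hosts were higher and 20 lower in both pairs, against 23 and 18 unpaired. No paired analysis was possible for inclusion because the order of the 2 listed values carries no label, and no outcross or batch ties the L2 libraries.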
